A study of Saccharomyces cerevisiae with 6 samples.

Results

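The genes described are 8 genes of budding yeast mitosis, cytokinesis and mitotic exit: CDC5, CDC20, SWI5, SIC1, ASE1, HOF1, MYO1 and BUD4. They were taken by symbol from the platform's annotation of its probes, which gave 9 features among 6912 and 8 genes among 5365 named ones. SWI5 had 2 features with identical values in all 6 scans, which were counted as 1 value, and the other members had 1 feature each. All 8 had a value in every hybridisation and were among the 5349 genes tested.

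Each array compared Saccharomyces cerevisiae S288C, a laboratory strain, after 2 h with 3.3 mM tetrachloroethylene (PCE, a chlorinated solvent; Cy5) with cells of an exponentially growing culture in YPD at 25 °C before the addition (Cy3). Per the labels there were 3 independent biological samples, each on an array of its own, and each array was read with a high and a low power laser setting. The 2 scans of an array are technical, and n is 3 hybridisations. All values below are log2 ratios of PCE-treated cells over cells before treatment. The base of the logarithm and the direction of the ratio were taken from convention and the dye labels, since neither is stated. Treated cells carried Cy5 on every array and the labels give no untreated sample at 2 h, so that treatment, elapsed time and dye cannot be told apart.

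In yeast, a wave of transcription before mitosis is driven by Mcm1 with the forkhead factor Fkh2 and its coactivator Ndd1. It includes the mitotic cyclin gene CLB2 and genes for the polo kinase, for activation of the anaphase-promoting complex and for the actomyosin ring. Its product Swi5 enters the nucleus as cells leave mitosis and activates a later set of genes, among them SIC1, whose protein inhibits the cyclin-dependent kinase with B-type cyclins. Transcripts of these genes are periodic, and in RNA from whole cultures a smaller share of cells in a phase and less RNA in each such cell cannot be told apart.

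Over all 5349 genes, hybridisation 1 stood apart from the others. The correlation across genes (which are not independent) was 0.84 between hybridisations 2 and 3, against 0.56 between 1 and 2 and 0.56 between 1 and 3, and the SD over genes was 0.90, 0.65 and 0.67 in hybridisations 1, 2 and 3. In hybridisation 1, 35.5% of tested genes had a high power value but no low power value, and so did 4 of the 8 members (CDC5, HOF1, BUD4 and MYO1). The scans were furthest apart in hybridisation 2, with a median absolute difference of 0.35 over genes read in both, and 0.50 over the 8 members. It was 0.17 and 0.20 over all genes in hybridisations 1 and 3.

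Of the 8 genes, CDC5 was lower after PCE and the remaining 7 did not pass the test. CDC5 averaged -0.86 ± 0.46 (SD, n = 3), a 1.81-fold lower level. HOF1 was next at -0.51 ± 0.27, and the other 6 had means between -0.20 and 0.04. With 1 of 8 members called lower (12.5%), the share was near the 11.9% of all tested genes called lower. None was called higher, by limma with Benjamini-Hochberg adjustment at 0.05, against 9.14% of all genes. In either direction, 21% of all genes were called. At an unadjusted p under 0.05, 2 members were lower, namely CDC5 and HOF1, and 0 higher, against 20.9% of all genes lower and 17.7% higher, or 38.6% in either direction.

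**Figure D1:**
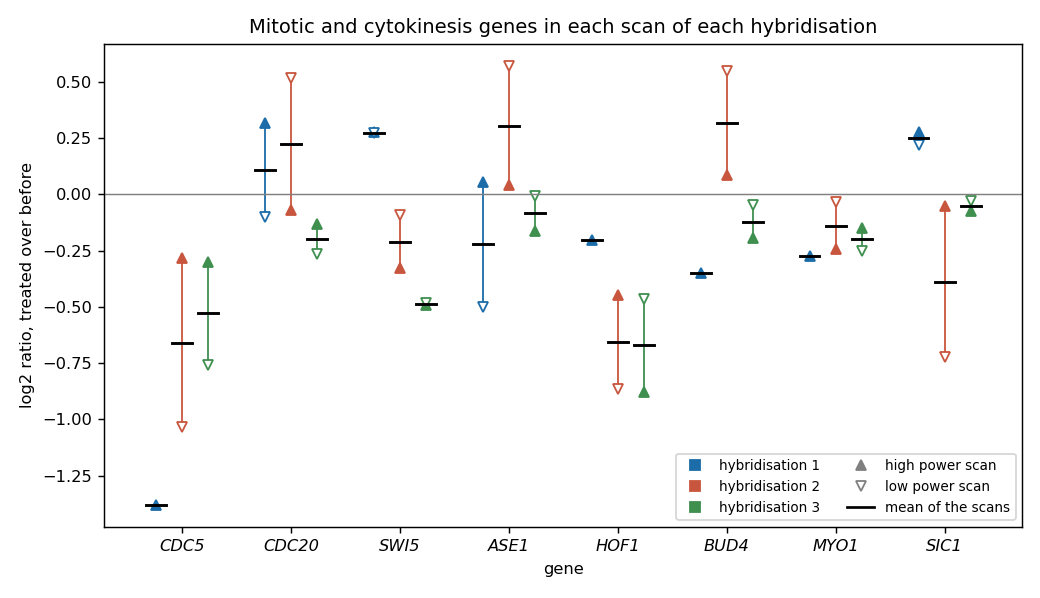
Log2 ratio (treated over before, vertical axis) of each of the 8 genes in each scan of the 3 hybridisations; filled triangles are high power scans, open triangles low power scans, and black bars the mean of the scans of a hybridisation. CDC5 and HOF1 lie below 0 in every scan that read them, and the scans of hybridisation 2 lie far apart for CDC5, CDC20, ASE1 and SIC1.

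CDC5 encodes the polo-like kinase, which acts in mitotic entry, in the release of the phosphatase Cdc14 and in cytokinesis. Its log2 ratio was -1.38 in hybridisation 1, -0.66 in hybridisation 2 and -0.53 in hybridisation 3. It was below 0 in each of the 5 scans that read it, and the lowest of the 8 genes in hybridisations 1 and 2. The 95% interval of its mean ran from -1.39 to -0.32, with an adjusted p of 0.0411 by limma. At that value the call was close to the threshold. From high power scans only, the mean was -0.66 and the adjusted p 0.130. Leaving out the low power scan of hybridisation 2 alone gave -0.73 and 0.0915. On that array the scans read -0.28 at high and -1.03 at low power, and on the third array -0.30 and -0.76. The mean was -0.59 without hybridisation 1 (adjusted p = 0.00576), -0.95 without hybridisation 2 (0.0599) and -1.02 without hybridisation 3 (0.126), fits that called 42.6%, 14.3% and 0.0187% of all genes in that order. Measured against all tested genes, CDC5 had 5.55% of genes below it in hybridisation 1, 14.1% in hybridisation 2 and 18.5% in hybridisation 3.

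CDC20, which activates the anaphase-promoting complex at the start of anaphase, had log2 ratios of 0.11, 0.22 and -0.20 in hybridisations 1, 2 and 3. The signs differed between hybridisations, and also between the scans of hybridisation 1 (0.32 at high and -0.10 at low power) and of hybridisation 2 (-0.07 and 0.52). Its mean was 0.04 ± 0.22, with an interval from -0.40 to 0.49 and an adjusted p of 0.886 by limma. On the fold scale that interval runs from 0.756 to 1.41, and these 3 arrays do not settle whether the level changed within those bounds.

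SWI5, the zinc finger activator of late mitosis and early G1, had log2 ratios of 0.27, -0.21 and -0.49. It was the highest of the 8 genes in hybridisation 1 and below 0 in the other hybridisations. The scans agreed closely in hybridisation 1 (0.28 and 0.27) and in hybridisation 3 (-0.49 and -0.48), so that the gap between these arrays was larger than that between their scans. The mean was -0.14 ± 0.38, with an interval from -0.65 to 0.36 and an adjusted p of 0.659.

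SIC1, the inhibitor of B-type cyclin kinase that Swi5 activates, had log2 ratios of 0.25, -0.39 and -0.05. It shared with SWI5 a positive value in hybridisation 1 and negative values in the others. These signs were not particular to SWI5 and SIC1, since FKH2 and NDD1 had them too, and a link was not tested. In hybridisation 2 the scans read -0.05 at high and -0.72 at low power, and high power scans taken alone gave a mean of 0.05. Its mean over both scans was -0.06 ± 0.32, with an interval from -0.54 to 0.42 and an adjusted p of 0.845.

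ASE1, a microtubule-bundling protein of the spindle midzone, had log2 ratios of -0.22, 0.31 and -0.08. These averaged to 0.00 ± 0.27 (adjusted p = 1.0, interval from -0.46 to 0.46), which put it near the middle of all genes, with 51.7% of them below it. The value in hybridisation 2 was the mean of 0.04 at high and 0.57 at low power, and that in hybridisation 1 the mean of 0.06 and -0.50.

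Of the 3 cytokinesis genes, HOF1 was the lowest. HOF1 encodes an F-BAR protein that links the septins to the contractile ring. Its log2 ratios were -0.20, -0.66 and -0.67, with all 5 scans that read it below 0, and it was the lowest of the 8 genes in hybridisation 3. The mean had an interval from -0.97 to -0.05, an unadjusted p of 0.0349 and an adjusted p of 0.102 by limma, so that it did not pass. Without hybridisation 1, in which only the high power scan read it, its mean was -0.66 and its adjusted p 0.00184, in a fit that called 42.6% of all genes. Without hybridisation 2 they were -0.44 and 0.446, and without hybridisation 3 -0.43 and 0.400.

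MYO1, the type II myosin heavy chain of the contractile ring, had log2 ratios of -0.27, -0.14 and -0.20, all below 0 and within a narrow range. Its SD of 0.07 was small, with 3.46% of all tested genes below it, against a median SD of 0.33 over all genes. The mean of -0.20 had an adjusted p of 0.434 and an interval from -0.62 to 0.22, since limma moderates each gene's variance towards that of all genes. MYO1 was below 0 in all 5 scans that read it.

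BUD4, which marks the axial bud site and helps to organise septins at the division site, had log2 ratios of -0.35, 0.32 and -0.12. The positive value came from hybridisation 2, where the scans read 0.09 and 0.55, and BUD4 was the highest of the 8 genes on that array. Its mean was -0.05 ± 0.34 (adjusted p = 0.879, interval from -0.54 to 0.44). In the order of means, CDC5 was lowest, followed by HOF1, MYO1, SWI5, SIC1, BUD4, ASE1 and CDC20. Each gene's interval included the mean of its neighbours in that order. Such an interval belongs to a single gene's mean and does not test a difference between genes read on the same arrays. Differences between genes were not tested, so that the order is a description only.

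**Figure D2:**
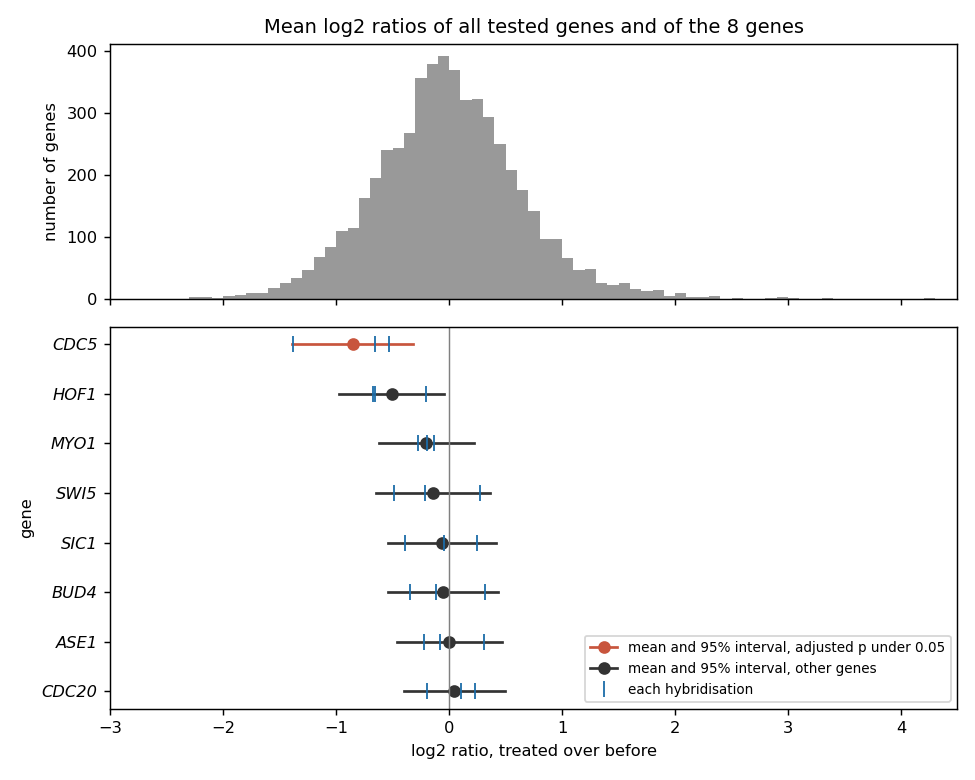
Above, the number of genes in bins of mean log2 ratio over all 5349 tested genes; below, on the same horizontal axis, the mean and 95% interval of each of the 8 genes with a tick for each hybridisation. The intervals of CDC5 and HOF1 lie below 0, those of the other 6 genes include 0, and CDC5 is the gene with an adjusted p under 0.05.

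By hybridisation, the median of the 8 log2 ratios was -0.21, -0.17 and -0.20, against medians of -0.08, -0.02 and -0.01 over all tested genes. In hybridisations 1 and 2, 5 members were below 0 and 3 above, and in hybridisation 3 all 8 were below 0. Over all tested genes, 54%, 51.4% and 50.5% were below 0 in hybridisations 1, 2 and 3. CDC5, HOF1 and MYO1 were below 0 in all 3 hybridisations, which is 37.5% of the members against 31.3% of all tested genes. No member was above 0 in all 3, as 27.5% of all genes were, and 58.8% of all genes kept a sign over the 3 arrays. A mean below 0 was found for 7 of the 8, and for 51.8% of all genes. The median of the members' means was -0.10, against -0.02 over all tested genes.

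The genes with the 5 profiles closest to the members' mean profile, by Euclidean distance over the 3 hybridisations, were MPA43 (0.04), LST7 (0.06), SQS1 (0.07), CEG1 (0.08) and YBR219C (0.09). That mean profile was -0.22, -0.15 and -0.29 in hybridisations 1, 2 and 3, so that the genes nearest to it were ones with small negative ratios on each array.

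Other genes of the same pathways were taken from 10 lists, of which 101 genes outside the members were tested. Of these, 9 fell and 0 rose by limma, and 92 did not pass. The 9 that fell were 8.91%, against 11.9% of all tested genes called lower and 9.14% called higher. At an unadjusted p under 0.05, 28 of the 101 were lower and 3 higher. Over all tested genes, 20.9% were lower and 17.7% higher at that threshold. The median of the 101 means was -0.15, against -0.02. Without hybridisation 3, 0 of the 9 passed by limma (adjusted p from 0.0761 to 0.151), and over the whole array 1 of 5349 genes (0.0187%) did. All 9 stayed below 0 there with an unadjusted p under 0.05, and their means were of like size, such as -1.68 for CLB2 (-1.54 over 3 arrays), -1.63 for CLB1 (-1.37), -1.08 for CDC4 (-0.90) and -0.99 for TUB2 (-1.06). Without hybridisation 2, when 14.3% of all genes were called, 9 related genes were lower, and 4 of the 9 genes lower over 3 arrays were among them. CHS2, BFA1, BUB1, STU2 and CDC4 did not pass there. Without hybridisation 1, when 42.6% of all genes were called (1170 lower and 1111 higher), all 9 passed, and 23 of the 101 were lower and 3 higher.

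Among 10 tested genes of the same Mcm1, Fkh2 and Ndd1 regulated cluster, 3 fell (30%) and 0 rose. At an unadjusted p under 0.05, 4 were lower and 0 higher. For this list and those below, the shares of all tested genes called were 11.9% lower and 9.14% higher. At an unadjusted p under 0.05 they were 20.9% and 17.7%. The mitotic cyclin gene CLB2 had log2 ratios of -2.20, -1.17 and -1.26 (adjusted p = 0.0121), and its close relative CLB1 -2.18, -1.08 and -0.85 (adjusted p = 0.0207). From high power scans only, CLB1 did not pass (adjusted p = 0.0654 by limma). Nor did it without the low power scan of hybridisation 2 (0.0597). CHS2, the chitin synthase that builds the primary septum, had -1.14, -0.81 and -0.67 (adjusted p = 0.0234). All of these, like CDC5, were lowest in hybridisation 1. KIN3, a kinase of the NIMA family, had a mean of -0.68 ± 0.38 and did not pass (adjusted p = 0.0638). The list's median was -0.19, and 7 of the 10 genes had a mean below 0. Means above 0 were those of ALK1 (0.55 ± 1.46), KIP2 (0.50 ± 1.07) and WSC4 (0.07 ± 0.50), which did not pass. These were highest in hybridisation 1, at 2.23, 1.73 and 0.63. Of the 6 transcriptional regulators of the cluster 0 passed, with 2 lower and 1 higher at an unadjusted p under 0.05. The 2 lower were FKH1 (-0.61 ± 0.38) and YHP1 (-0.65 ± 0.54), each below 0 on every array. YOX1 was the higher one (0.79 ± 0.78), above 0 on every array. Their adjusted p by limma was 0.0825, 0.0967 and 0.101 in that order. MCM1 averaged 0.05 ± 0.35, FKH2 -0.01 ± 0.30 and the coactivator NDD1 -0.36 ± 0.46, and NDD1 had a positive ratio in hybridisation 1 (0.14) and negative ones in hybridisations 2 and 3.

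**Figure D3:**
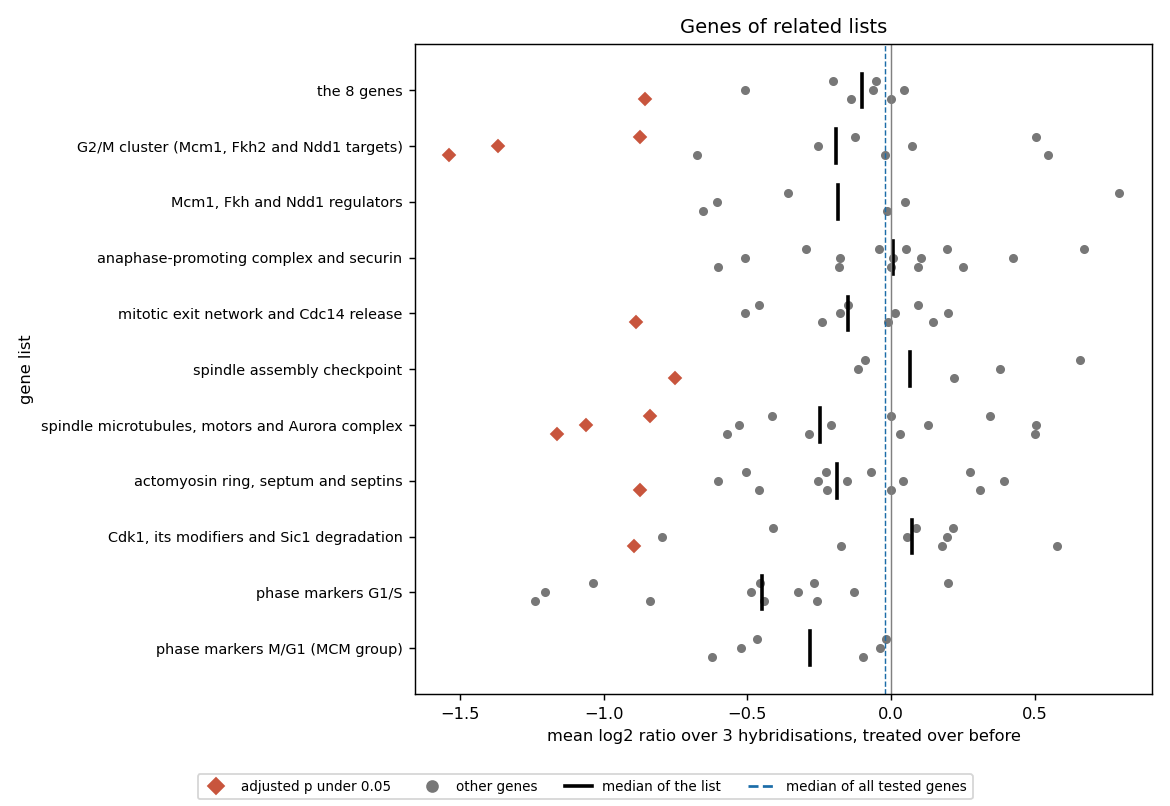
Mean log2 ratio over 3 hybridisations (horizontal axis) of each tested gene of the 8 genes and of 10 related lists; red diamonds are genes with an adjusted p under 0.05, black bars the list medians, and the dashed line the median of all tested genes (-0.02). Every red diamond lies below 0, with CLB2 and CLB1 lowest, and a gene on several lists is drawn on each.

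None of the 15 tested genes of the anaphase-promoting complex, its activator CDH1, the securin PDS1 and the separase ESP1 passed by limma, with 2 lower and 1 higher at an unadjusted p under 0.05. Their median was 0.01, close to the 0.04 of CDC20. PDS1, whose protein is degraded through Cdc20, had -0.47, -0.50 and -0.84 (adjusted p = 0.0621). APC2, the cullin subunit of the complex, had 0.37, 0.60 and 1.04 (adjusted p = 0.0600). Securin thus lay below 0 and the cullin subunit above 0 on every array, without either passing. Of all tested genes, 31.3% were below 0 and 27.5% above 0 on every array. In the mitotic exit network and the control of Cdc14 release, 1 of 11 fell (9.09%) and 0 rose. At an unadjusted p under 0.05, 2 were lower and 0 higher. The gene that fell was BFA1, an inhibitor of the network that the Cdc5 kinase phosphorylates, with -1.26, -0.77 and -0.63 (adjusted p = 0.0271). The kinase genes CDC15 (-0.01 ± 0.39) and DBF2 (0.01 ± 0.14) had means near 0. Of 6 genes of the spindle assembly checkpoint, which restrains Cdc20, 1 fell (16.7%) and 0 rose. At an unadjusted p under 0.05, 1 was lower and 0 higher. The gene that fell was the kinase gene BUB1 (-0.87, -0.77 and -0.62, adjusted p = 0.0305 by limma). The median of these 6 genes was 0.06, against -0.02 over all tested genes, and 3 had a mean below 0. MPS1 (0.66 ± 1.02), MAD2 (0.38 ± 0.15) and MAD3 (0.22 ± 0.12) had means above 0 and did not pass.

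Among 14 tested genes of spindle microtubules and motors, with which Ase1 works, 3 fell (21.4%) and 0 rose. At an unadjusted p under 0.05, 5 were lower and 0 higher. TUB4, the gamma-tubulin gene, had -1.35, -0.92 and -1.23 (adjusted p = 0.0120). The beta-tubulin gene TUB2 had -0.84, -1.15 and -1.21 (adjusted p = 0.0141), and STU2, a microtubule polymerase, -1.28, -0.56 and -0.68 (adjusted p = 0.0367). ASE1 itself had a mean of 0.00, while the kinesin-5 gene CIN8 had -0.53 ± 0.17 and did not pass (adjusted p = 0.0818). The list was mixed, with a mean below 0 for 8 of the 14 and a median of -0.25. Among those above 0 were KIP2 (0.50 ± 1.07), STU1 (0.50 ± 0.54) and BIR1 (0.35 ± 0.37), which did not pass.

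Of 14 tested genes of the actomyosin ring, septum and septins, CHS2 fell (7.14% of the list) and 0 rose. At an unadjusted p under 0.05, 3 were lower and 0 higher. INN1, whose protein binds Hof1 and is needed for membrane ingression, had -0.45, -0.47 and -0.88 (adjusted p = 0.0660). The myosin light chain genes had means of -0.23 ± 0.32 (MLC1) and 0.31 ± 0.07 (MLC2). MLC2, the regulatory light chain of Myo1, was above 0 on every array while MYO1 was below 0 on every array, with neither passing. Such constant signs were common, with 27.5% of all tested genes above 0 and 31.3% below 0 on every array. BUD3, which acts with Bud4 at the axial site, had -0.26 ± 0.17, and the axial marker AXL2 0.27 ± 0.53. The septin genes CDC3, CDC10, CDC11, CDC12 and SHS1 did not pass, with means between -0.22 and 0.39.

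Among 10 genes of the cyclin-dependent kinase, its modifiers and the machinery that degrades Sic1, 1 fell (10%) and 0 rose. At an unadjusted p under 0.05, 2 were lower and 1 higher. CDC4, the F-box protein that binds phosphorylated Sic1, had -1.16, -1.01 and -0.52 (adjusted p = 0.0266). The ubiquitin-conjugating enzyme gene CDC34 of the same reaction had 0.66, 0.52 and 0.55 and did not pass (adjusted p = 0.0602). The cullin gene CDC53 (0.20 ± 0.21) and the adaptor gene SKP1 (-0.41 ± 0.33) did not pass. CDC28, the kinase itself, had a mean of 0.09 ± 0.18.

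Markers of other phases of the cycle were set beside these values. Of 12 markers of the G1 to S transition 0 passed by limma, although 11 had a mean below 0 and 5 were lower at an unadjusted p under 0.05, with 0 higher. Their median was -0.92 in hybridisation 1, -0.16 in hybridisation 2 and -0.51 in hybridisation 3. CLN1 was at -0.84 ± 0.53 (adjusted p = 0.0513), and CLB6 ranged from -2.46 in hybridisation 1 to -0.55 in hybridisation 2. Of 6 tested markers of the M to G1 interval, 0 passed by limma, all 6 had a mean below 0, and 3 were lower and 0 higher at an unadjusted p under 0.05, with a median of -0.28. Over all tested genes, 51.8% had a mean below 0, and 20.9% were lower at an unadjusted p under 0.05. The part of these phase markers in the values of the 8 genes was not tested.

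**Figure D4:**
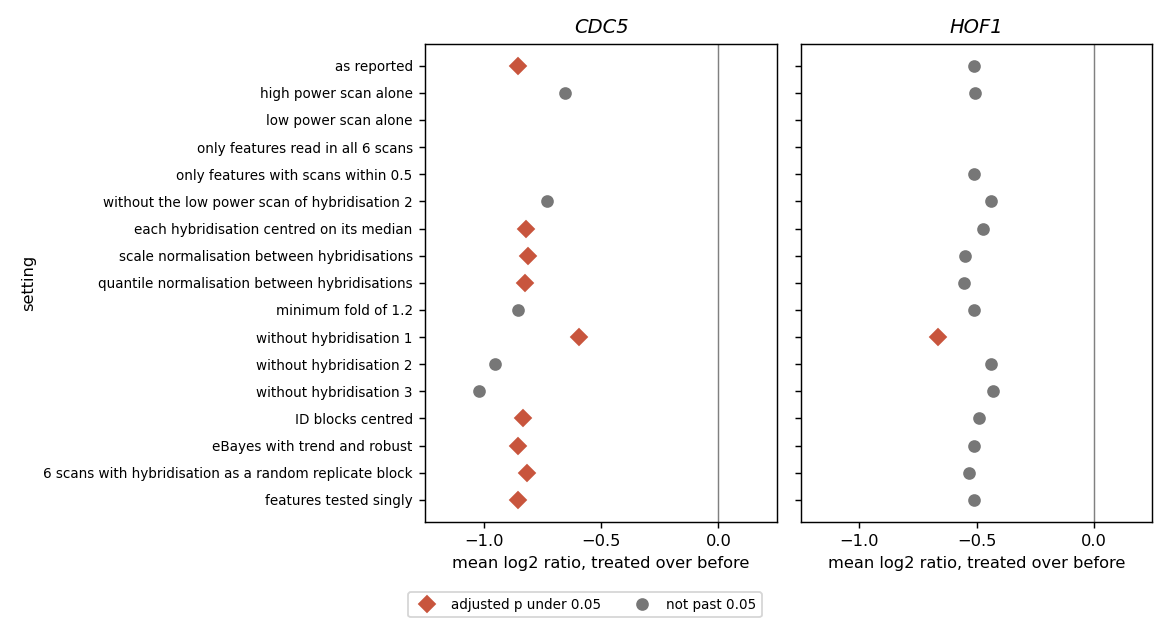
Mean log2 ratio (treated over before, horizontal axis) of CDC5 and HOF1 under each setting of the analysis; red diamonds have an adjusted p under 0.05 and no point is drawn where a setting left no value. Both genes stay below 0 under every setting that gives a value, CDC5 passing in 8 of 13 alternatives and HOF1 in 1 of 14.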

How the data were processed

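The deposited values are log2 ratios (base taken by convention) for 6 scans, which the authors normalised by LOWESS on the spots flagged 0, as given in the labels' descriptions. No scanner, image software or background subtraction is named in the sources used here. Neither the authors' merged values nor intensities of spots were used here, so that no filter on dim spots was applied. The number of arrays limits the precision. The platform annotation named 1 gene for 5513 features and none for 1399, and symbols were updated through a RefSeq gene table of assembly R64, used for names only. Scans of a hybridisation were averaged, then features of a gene. Genes lacking a value on any of the 3 arrays were left out.

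Means were tested against 0, two-sided, with limma 3.58.1 in R 4.3.3 (lmFit, eBayes, intercept only) and Benjamini-Hochberg adjustment over 5349 genes. The procedure was tested on simulated data. The members and lists were chosen with earlier results of these data known. Genes named are the 8 members, up to 4 called genes of each list, the 4 lowest genes of the G2/M cluster and the 5 genes nearest the members' mean profile. Other named genes were chosen after their values were seen. A planned search of promoters for motifs was not run, since no sequences were used here. Some of the planned gene lists are not reported here.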

Additional observations from a re-analysis of the deposited data

How the results depend on the processing

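CDC5, HOF1 and MYO1 kept a mean below 0 under each alternative that gave a value (13, 14 and 14 of 16). CDC5 passed in 8 of its 13. The count of members called lower was 1 as reported. It was 0 from high power scans only (CDC5 at -0.66), when the low power scan of hybridisation 2 was left out (-0.73) and against a minimum fold of 1.2 (-0.86). It was also 0 from low power scans only, for features read in all 6 scans and for features with scans within 0.5, where CDC5 had no value. In either direction, 21.4% of all genes were called from high power scans only. Without the low power scan of hybridisation 2 the share was 20.4%, and against the minimum fold 9.61%. In the settings where CDC5 had no value, it was 24%, 20.4% and 20.1% in that order. Leaving out each hybridisation in turn called 0.0187% (without 3), 14.3% (without 2) and 42.6% (without 1) of all genes, against 21% as reported, and gave 0 to 2 members lower, with means from -1.02 to -0.59 for CDC5, -0.66 to -0.43 for HOF1 (called without hybridisation 1), -0.0463 to 0.17 for CDC20, -0.35 to 0.0316 for SWI5, -0.15 to 0.11 for ASE1, -0.24 to 0.10 for BUD4 and -0.22 to 0.10 for SIC1, and 0 to 23 related genes lower and 0 to 3 higher. Genes with means near 0 changed sign without passing in any setting. SIC1 was at 0.0506 from high power scans only and at 0.0487 when the low power scan of hybridisation 2 was left out, where CDC20 was at -0.0535. ASE1 was at 0.0219 from low power scans only, 0.0367 after median centring, 0.0240 after scaling, 0.0179 after quantile normalisation and 0.0230 after centring of ID blocks.

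The 9 related genes lower and 0 higher became 14 lower from high power scans only, 4 lower from low power scans only, 1 lower and 1 higher for features read in all 6 scans, 5 lower with scans within 0.5 and 4 lower with a minimum fold of 1.2. They became 17 lower and 2 higher after scaling, 16 and 2 after quantile normalisation, and 20 and 3 in the fit of 6 scans with hybridisation as a random replicate block. Over all genes the share called moved too, to 27.9%, 27.2% and 32.5% in these 3 settings and to 9.61% with the minimum fold. That share was 21.4% from high power scans only and 24% from low power scans only. For features read in all 6 scans it was 20.4%, and with scans within 0.5 it was 20.1%. When the low power scan of hybridisation 2 was left out, 12 were lower and 20.4% of all genes were called. A count of 1 related gene higher was also found from high power scans only, without the low power scan of hybridisation 2, after median centring and after centring of ID blocks. The causes of these changes were not tested. Fewer genes were measured in the settings that drop scans or features. Of the 9 genes lower as reported, 2 were measured from low power scans only and 1 for features read in all 6 scans. With scans within 0.5, 5 were measured. Each gene measured in these settings kept its call. The number of arrays and the lack of spot intensities limit the precision of each mean.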
